A study of Zea mays with 2 samples.

Results

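Isolated positions are listed loci that stand far from every other listed locus: their span, the distance from start to end, was 500 bp or more, they were listed once on chromosomes 1 to 10, and no other listed position had an edge within 300 kb on either side. There were 492 such positions among 10485 of 500 bp or more (4.69%) and among 11697 positions in all. Expression at these loci was measured by RNA sequencing in endosperm of maize kernels collected 15 days after pollination, in the rea1 mutant and in wild type (WT). The other 9993 positions of 500 bp or more are the set they are compared with, and are called other positions below. The choice used coordinates only and no expression value. Both libraries are endosperm RNA, and nothing in the labels names the allele or the genetic background. The design text states triplicates, but the data analysed here give 1 value per locus and genotype, so each genotype counts as 1 sample. There is no replicate error, so no difference was tested and no p-value is given. Intervals below are 95% intervals over positions (exact Clopper-Pearson for shares, binomial order statistics for medians). They describe the counting of positions in these libraries, and positions are not replicates.

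Endosperm is the tissue of the maize kernel that stores starch and protein for the embryo. Most of the maize genome consists of transposable elements, above all retrotransposons, and genes stand singly or in small islands between blocks of them. Genes are dense towards the chromosome ends and sparse around the centromeres, where recombination is also rare. The rea1 mutant is known to be defective in a maize counterpart of midasin, a large AAA-ATPase needed for assembling and exporting precursors of the large subunit of ribosomes.

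The files name a locus only by chromosome, start and end, in an unstated genome build, so no gene name, sequence or function could be attached to a position and no tissue marker could be checked. Whether the stretches around isolated positions are poor in genes could not be checked either. RefSeq's table for the assembly Zm-B73-REFERENCE-NAM-5.0 lists 33681 protein-coding genes on the 10 chromosomes, against 11697 listed positions, so genes that are not listed may lie between them. "Isolated" therefore means isolated among listed positions. Starts are printed counting from 1.

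The listed positions left wide unlisted stretches. The median gap between neighbouring listed positions was 77.9 kb, and 2250 of 11687 gaps (19.3%) were longer than 300 kb. These long gaps added up to 1278 Mb, 62.1% of the 2057 Mb up to the last listed end of each chromosome. The nearest listed edge was a median of 389 kb from an isolated position (quartiles 340 and 488 kb, maximum 1365 kb) and a median of 14.5 kb from an other position. In all, 116 isolated positions had no listed position within 500 kb, and 7 had none within 1000 kb. Isolated positions had a median span of 2323 bp (quartiles 1169 and 4907 bp) and other positions one of 2485 bp (1290 and 4723 bp).

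Isolated positions lay mostly in the middle of the chromosomes. The central 50% of each chromosome held 331 of the 492 isolated positions (67.3%) and 3255 of the 9993 other positions (32.6%). The share of positions that were isolated was highest in bin 5 of 10 equal bins along the chromosome, at 16.2% (85 isolated positions), was 12.1% and 11.1% in the bins on either side of it, and was 1.86% and 1.39% in the bins at the chromosome ends. By chromosome the isolated share ran from 3.43% on chromosome 1 (58 positions) to 6.28% on chromosome 4 (69 positions), with 6.14% on chromosome 7 and 5.88% on chromosome 6.

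**Figure D1:**
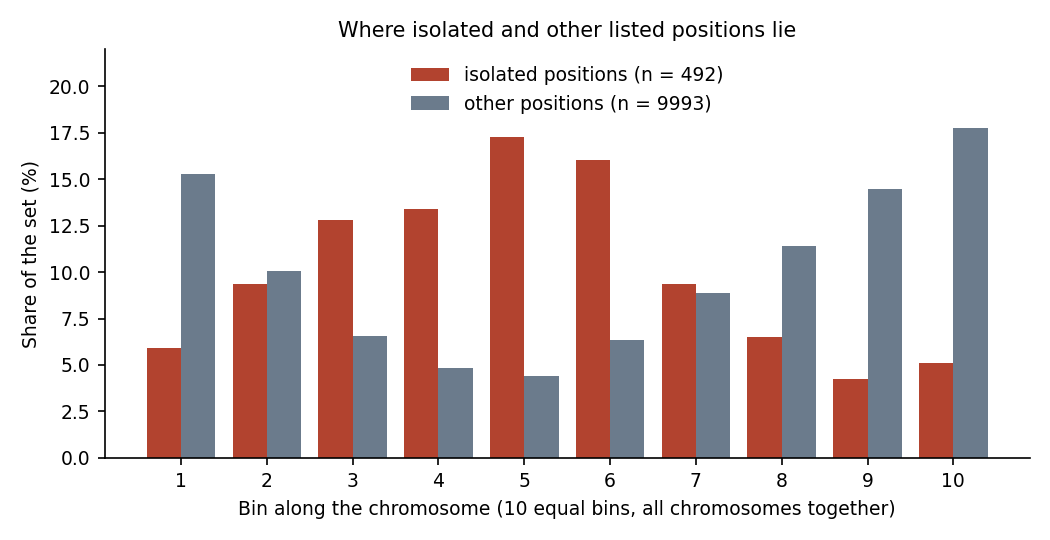
Share of the 492 isolated and of the 9993 other positions (y axis, %) that fall in each of 10 equal bins along the chromosome (x axis, midpoint over the last listed end, all chromosomes together). Isolated positions are most frequent in the middle, with 17.3% in bin 5, where the other positions are least frequent at 4.40%.

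Some isolated positions followed one another along the chromosome. In 120 cases the next listed position after an isolated one was itself isolated, which joined 202 isolated positions into 82 runs, and 290 stood alone. The rule bears on these counts, because a position next to an isolated one already has a gap over 300 kb on 1 side. Of all gaps, 19.3% were that long. Whether runs were more frequent than the gaps alone would give was not tested. The longest run held 7 positions over 5.03 Mb of chromosome 4, from 104065539 to 109095168. Of its members, 2 reached 1 FPKM (fragments per kilobase of transcript, scaled to library size). The position at 105122427 to 105125306 had 17.2 FPKM in rea1 against 8.33 FPKM in WT, and that at 104065539 to 104069207 had 3.85 FPKM in rea1 against 4.42 FPKM in WT. The other 5 stayed under 1 FPKM in both libraries, and 2 of them were listed at 0 in both. A run of 5 positions over 2.17 Mb of chromosome 8, from 86871378 to 89038603, held 3 that reached 1 FPKM. Their values were 4.98 FPKM in rea1 against 3.41 in WT at 87184036 to 87234334, 15.9 in rea1 against 17.8 in WT at 88587852 to 88601053, and 22.7 in rea1 against 9.89 in WT at 89037640 to 89038603.

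Fewer isolated than other positions were expressed. Counting a position as expressed when it reached 1 FPKM in the higher of the 2 libraries, 200 of 492 isolated positions were expressed (40.7%, interval 36.3 to 45.1) and 5153 of 9993 other positions (51.6%, 50.6 to 52.6). The share over all positions of this span was 51.1%. Isolated positions had to be listed once, which was not asked of other positions. Among other positions listed once, 4831 of 9590 (50.4%) were expressed, and the difference was -9.72 points. In the rea1 library alone 178 isolated positions (36.2%) and 4731 other positions (47.3%) reached 1 FPKM. In the WT library 186 isolated (37.8%) and 4748 other positions (47.5%) did. The gap of 10.9 percentage points was thus present in both libraries. At the low end, 129 isolated positions (26.2%) and 1922 other positions (19.2%) were listed at 0 in both libraries. A zero was listed in rea1 only for 42 of the 492 isolated positions and in WT only for 54. Among the 9993 other positions these counts were 820 and 881, and among all 10485 they were 862 and 935.

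The size of the gap depended on the part of the chromosome. In the central 50% of the chromosomes, 139 of 331 isolated positions (42.0%) and 1510 of 3255 other positions (46.4%) were expressed, a gap of 4.40 points. In the outer parts, 61 of 161 isolated positions (37.9%) and 3643 of 6738 other positions (54.1%) were, a gap of 16.2 points. Other positions thus had a lower expressed share in the middle of the chromosomes than in the outer parts, and isolated positions did not. Place along the chromosome moved with the result, and its part in the result was not tested beyond this split, which was chosen after the values were seen.

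The expressed share rose over 3 span classes in both sets, but was lower again among the longest positions. At 500 to 2000 bp, 60 of 211 isolated positions (28.4%) and 1458 of 4151 other positions (35.1%) were expressed. At 2000 to 5000 bp the numbers were 79 of 165 isolated (47.9%) and 2075 of 3552 other positions (58.4%). At 5000 bp or more they were 61 of 116 isolated (52.6%) and 1620 of 2290 other positions (70.7%), the widest of the gaps between the sets in the 3 classes. At 15 kb or more, 17 of 41 isolated positions (41.5%) and 279 of 473 other positions (59.0%) were expressed, so the isolated share at this length was close to that of isolated positions of all spans. Both shares were below those of the whole class of 5000 bp or more. Positions of 15 kb or more made up 41 of the 116 isolated and 473 of the 2290 other positions in that class. The longest, at 29621640 to 29705712 on chromosome 8 with a span of 84073 bp, was listed at 0 in both libraries. The next, of 82109 bp at 99823498 to 99905606 on chromosome 4, had 1.58 FPKM in rea1 against 1.61 FPKM in WT.

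**Figure D2:**
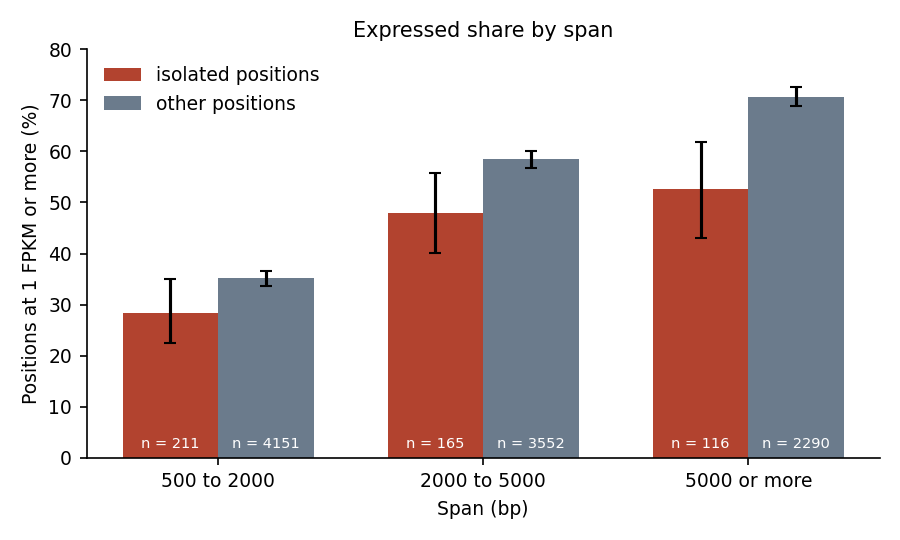
Share of positions at 1 FPKM or more in the higher library (y axis, %) by span class (x axis, bp) for isolated and other positions. Bars are shares, error bars their exact 95% Clopper-Pearson intervals over positions. The isolated bar is the lower of the pair in each class, by the most at 5000 bp or more (52.6% and 70.7%).

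Among positions listed once, the expressed share was highest within 10 kb of a neighbour and lower beyond 300 kb than in any nearer class. It was 40.2% (interval 35.2 to 45.3) for the 376 isolated positions at 300 to 500 kb from the nearest listed edge. For the 116 beyond 500 kb it was 42.2% (33.1 to 51.8). Below the limit it was 55.0% at up to 10 kb (4358 positions), 47.5% at 10 to 30 kb, 47.0% at 30 to 100 kb, 43.9% at 100 to 200 kb and 47.8% at 200 to 300 kb. The interval at 100 to 200 kb was 41.1 to 46.8 and that at 200 to 300 kb 43.6 to 52.1. Both overlapped those beyond 300 kb, so no step at the limit is claimed. The following values lie next to the limit. Just inside it lay 3 positions of chromosome 6. The one at 65111924 to 65124501 was listed at 0 in rea1 and had 0.98 FPKM in WT, the one at 65991630 to 65992910 had 0.31 FPKM in rea1 against 0.32 in WT, and the one at 66293157 to 66294675 was listed at 0 in both. Just outside it, the position at 140231738 to 140233986 on chromosome 8 was listed at 0 in both libraries, that at 108851824 to 108889903 on chromosome 3 was listed at 0 in rea1 and had 0.28 FPKM in WT, and that at 210865185 to 210868144 on chromosome 4 had 1.17 FPKM in rea1 against 1.39 in WT.

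**Figure D3:**
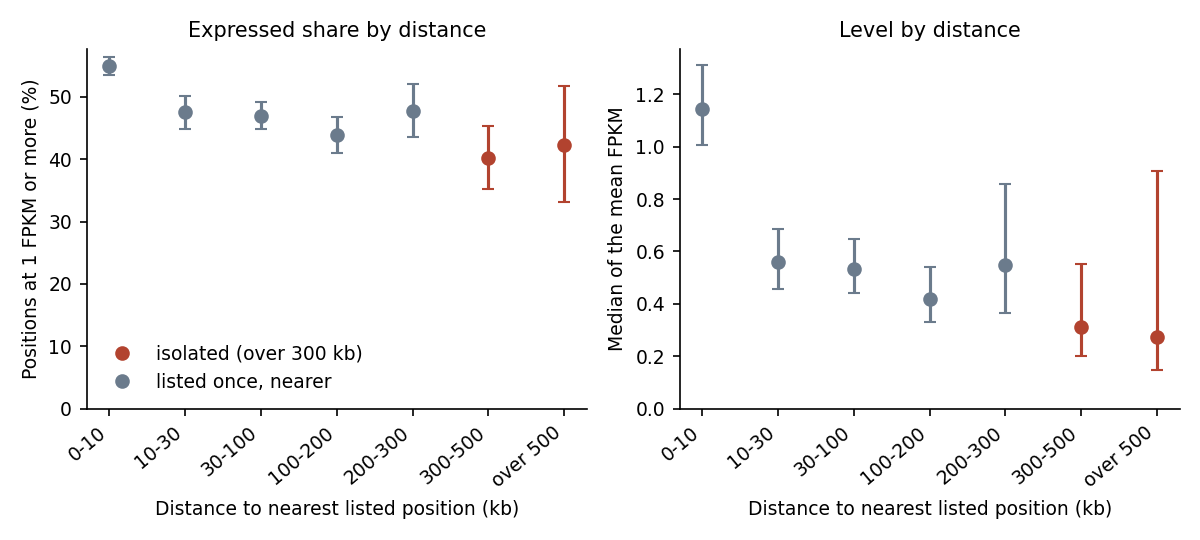
Expressed share (left, %) and median over positions of the mean FPKM of both libraries (right) by distance to the nearest listed position (x axis, kb), for positions listed once. Points are shares or medians with 95% intervals over positions, and the 2 classes beyond 300 kb are the isolated positions. The highest values, 55.0% and 1.15 FPKM, belong to the class within 10 kb.

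The lower share was found on 8 of 10 chromosomes. It was widest on chromosome 5, with 15 of 53 isolated positions expressed (28.3%) and 557 of 1011 other positions (55.1%). On chromosome 9 it ran the other way, with 23 of 40 isolated (57.5%) and 336 of 721 other positions (46.6%). On chromosome 10 the shares were close, at 16 of 31 isolated (51.6%) and 392 of 780 other positions (50.3%).

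The level of those isolated positions that were expressed was close to that of the others. The mean FPKM of both libraries had a median of 6.58 over the 200 expressed isolated positions (quartiles 2.10 and 16.2) and 6.35 over the 5153 expressed other positions (quartiles 2.34 and 16.8). Over all positions, expressed or not, the median was 0.30 FPKM for isolated (interval 0.21 to 0.53) and 0.83 FPKM for other positions (0.77 to 0.92). A mean of 100 FPKM or more was reached by 9 isolated (1.83%) and 196 other positions (1.96%).

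Most of the isolated transcript output came from few positions. The 10 highest held 66.4% of the summed FPKM of isolated positions in the rea1 library and 60.1% in the WT library. Their summed FPKM was 6720 in rea1 against 5039 in WT, 1.33-fold higher in rea1, and 1.27-fold higher without the most abundant position. It made up 3.03% of the summed FPKM of all positions of 500 bp or more in rea1 and 1.31% in WT. The sums of the other positions were 214994 FPKM in rea1 against 378536 in WT, so the share of isolated positions depends also on the smaller rea1 total. Values were not rescaled. Over all positions of 500 bp or more with 10 FPKM or more in both libraries, the median log2 ratio of FPKM, rea1 over WT, was 0.25. The higher isolated sum in rea1 is therefore not claimed as particular to isolated positions.

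The most abundant isolated position was that at 70732363 to 70733351 of chromosome 6, where both libraries were high, at 2196 FPKM in rea1 against 1479 FPKM in WT. It was the only isolated position at a mean of 1000 FPKM or more, against 17 other positions, and its nearest listed neighbour was 658 kb away. Chromosome 6 held 4 of the 9 isolated positions at a mean of 100 FPKM or more, and 47 of all 492 isolated positions. How many of the 196 other positions at this level lay there was not counted, so nothing particular to this chromosome is claimed. At 136879633 to 136883005 FPKM was 477 in rea1 against 186 in WT, 2.57-fold higher in rea1. At 87282559 to 87286379, in a stretch free of listed positions for 836 kb or more on each side, it was 332 in rea1 against 361 in WT. The position at 10131644 to 10132213 had 66.9 FPKM in rea1 against 147 in WT, 2.20-fold lower in rea1. The 4 therefore held both directions.

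Outside chromosome 6, the next most abundant isolated position was at 73918711 to 73921281 on chromosome 2, with 585 FPKM in rea1 against 145 in WT, a 4.03-fold difference. The position at 143085669 to 143086852 on chromosome 7 had 174 FPKM in rea1 against 340 in WT, 1.96-fold lower in rea1. At 233048223 to 233050965 on chromosome 4 FPKM was 239 in rea1 against 131 in WT. The remaining 3 of the 10 most abundant were all higher in the rea1 library. The position at 149968359 to 149978577 on chromosome 1 had 134 FPKM in rea1 against 92.3 in WT, and that at 103675901 to 103679774 on chromosome 2 had 151 in rea1 against 66.4 in WT. On chromosome 9, at 99784773 to 99786058, it was 110 in rea1 against 81.7 in WT. Of these 10 positions, 7 had their higher value in the mutant library, among them 3 past 2-fold, and 1 was lower by 2-fold or more. Abundant other positions leaned the same way. Where the higher value was 100 FPKM or more, 4 of 11 isolated (36.4%) and 99 of 241 other positions (41.1%) were 2-fold higher in rea1. Lower by 2-fold were 1 isolated (9.09%) and 29 other positions (12.0%).

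Taken over whole chromosomes, isolated positions differed between the libraries about as often as the rest. The log2 ratio is that of FPKM + 1 in rea1 over FPKM + 1 in WT, which understates differences of low positions, and 2-fold means a log2 ratio of 1 or more on this scale. Of the 200 expressed isolated positions, 20 (10%) passed 2-fold upward in rea1 and 19 (9.50%) passed it downward. Over all expressed positions of this span the shares were 11.2% higher and 7.47% lower, and 18.7% in either direction, against 19.5% of isolated positions. The parts of the chromosome differed in this. In the central 50%, 32 of 139 isolated (23.0%) and 264 of 1510 other positions (17.5%) passed 2-fold in either direction. In the outer parts, 7 of 61 isolated (11.5%) and 696 of 3643 other positions (19.1%) did. This split was chosen with values known and was not tested. The median log2 ratio was 0.026 over isolated positions (interval -0.075 to 0.19) and 0.11 over other positions (0.090 to 0.13). The ratio was above 0 for 104 of 200 isolated positions (52.0%) and 2908 of 5153 other positions (56.4%). With the median ratio of well-expressed positions set to 0, a shift of 0.25, the split of isolated positions became 12 higher and 24 lower and that of other positions 388 and 503. Among the 190 expressed isolated positions above 0 in both libraries, 18 were higher (9.47%) and 11 lower (5.79%). The same filter left 491 other positions higher (9.89%) and 282 lower (5.68%).

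**Figure D4:**
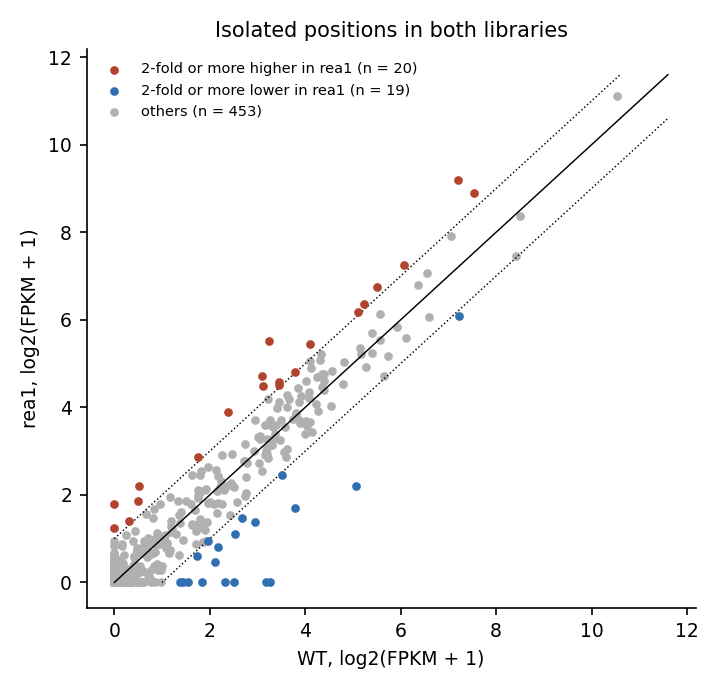
log2(FPKM + 1) of the 492 isolated positions in rea1 (y axis) and in WT (x axis), 1 point per position. The solid line marks equal values and the dotted lines 2-fold differences on this scale. The 20 positions higher in rea1 include several of the most abundant ones, and 2 of the 20 are listed at 0 in WT. Of the 19 lower ones, 8 are listed at 0 in rea1.

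**Figure D5:**
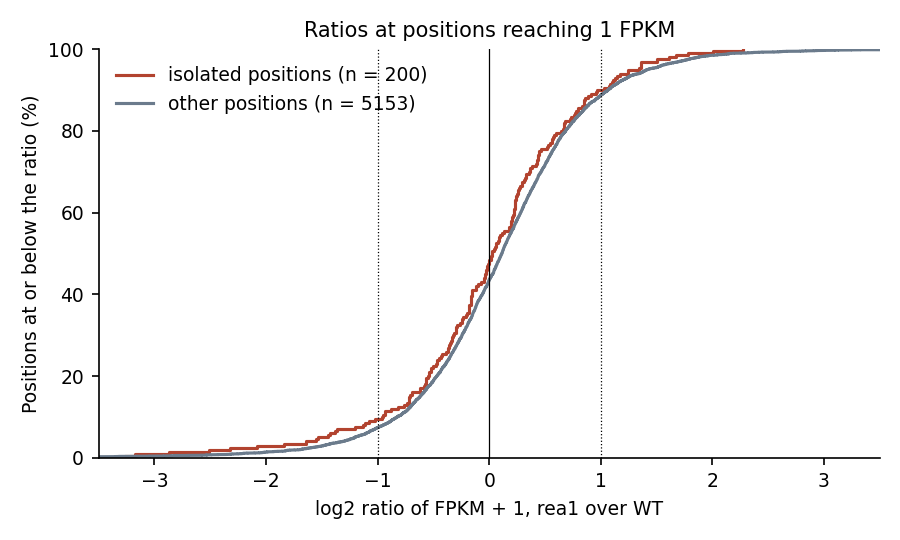
Cumulative share of positions reaching 1 FPKM (y axis, %) by log2 ratio of FPKM + 1, rea1 over WT (x axis, shown from -3.5 to 3.5), for 200 isolated and 5153 other positions. Dotted lines mark 2-fold differences. The isolated curve runs close to the other one, with medians of 0.026 and 0.11.

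Ratios were also split by level. Of 114 isolated positions whose higher value was 1 to 10 FPKM, 6 were higher in rea1 (5.26%) and 15 lower (13.2%), beside 8.34% and 8.28% over all positions of this span and level. Of 86 that reached 10 FPKM, 14 were higher (16.3%) and 4 lower (4.65%), beside 15.0% and 6.39% over all positions of this span and level. The median log2 ratio of the 86 was 0.25, with 55 above 0, and that of the 2198 other positions reaching 10 FPKM was 0.27. A span under 2000 bp was found for 22 of the 39 isolated positions past 2-fold and for 481 of the 960 other positions past it. The most abundant position listed at 0 in 1 library was at 85177788 to 85182310 on chromosome 8, listed at 0 in rea1 with 8.55 FPKM in WT.

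Depth had to be estimated from the lowest values. Among positions listed once that spanned 1 to 3 kb in multiples of 3, FPKM times span in kb was under 0.0858 for the lowest 2% of nonzero values in rea1, and under 0.108 for those in WT. Taking such a value as a single fragment, a 1 kb position at 1 FPKM would hold roughly 11.7 fragments in rea1 and 9.27 in WT, and at 10 FPKM roughly 117 in rea1 and 92.7 in WT. The estimate is coarse because spans include introns. Values far below the one taken as a single fragment also occur. The isolated position at 55477440 to 55478555 on chromosome 3 had 5.86e-06 FPKM in WT. Differences near 1 FPKM rest on few fragments, and those above 10 FPKM on many more.

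Among isolated positions reaching 10 FPKM, the highest ratio was at 91656759 to 91658012 on chromosome 7, with 44.5 FPKM in rea1 against 8.40 in WT, a 5.30-fold difference. The chromosome 2 position at 73918711 came next. The third lay at 72413770 to 72415391 on chromosome 4, with 25.3 FPKM in rea1 against 7.59 in WT, 3.34-fold higher. A further position of chromosome 4, at 123210065 to 123211581, had 13.8 FPKM in rea1 against 4.20 in WT, 3.27-fold higher, and that at 90339002 to 90339854 on chromosome 9 had 21.3 in rea1 against 7.68 in WT, 2.77-fold higher. All 5 had spans between 853 and 2571 bp.

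In the other direction, the lowest ratio was at 57077560 to 57082391 on chromosome 7, with 3.58 FPKM in rea1 against 32.4 in WT, 9.05-fold lower in rea1. At 73617174 to 73619221 on chromosome 9, FPKM was 2.25 in rea1 against 12.7 in WT, 5.65-fold lower. The chromosome 6 position at 10131644, given above, followed. The position at 149553769 to 149557095 on chromosome 4 had 4.46 FPKM in rea1 against 10.5 in WT, 2.35-fold lower. The fifth, at 143085669 of chromosome 7, stayed within 2-fold.

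Positions more than 500 kb from any listed neighbour held more lower than higher ones, unlike those nearer the limit. Of the 49 expressed ones, 1 was 2-fold higher in rea1 and 8 were lower, beside 11.2% and 7.47% over all positions. Of the 151 expressed ones at 300 to 500 kb, 19 were higher and 11 lower. The median log2 ratio was -0.12 beyond 500 kb and 0.091 at 300 to 500 kb. Only 2 of the 8 reached 10 FPKM, 3 of them lay on chromosome 9, and 1 was listed at 0 in rea1. The distance classes were set with earlier results known, and the difference between them was not tested.

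The 5 most remote positions were weakly expressed or silent. The most remote, at 106490672 to 106492042 on chromosome 4 and 1365 kb from the nearest listed edge, was listed at 0 in both libraries, as was that at 66841623 to 66845737 on chromosome 9 (1069 kb). The position at 45878127 to 45887841 on chromosome 8 (1288 kb) had 2.55 FPKM in rea1 against 3.04 in WT. That at 63077110 to 63078149 on chromosome 7 (1267 kb) had 0.34 FPKM in rea1 against 0.85 in WT. The last, at 103470880 to 103471522 on chromosome 3 (1220 kb), had 0.18 FPKM in rea1 and was listed at 0 in WT.

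Neighbours of isolated positions were compared with them. The nearest listed position was expressed for 81 of 200 expressed isolated positions (40.5%) and for 126 of 292 that were not expressed (43.2%). For other positions these shares were 2885 of 5153 (56.0%) and 2312 of 4840 (47.8%). Of the 120 neighbouring pairs of isolated positions, both were expressed in 22, 1 in 63 and neither in 35. The ratio had the same sign in 15 of the 22 pairs. Both members passed 2-fold in 3 pairs, in each case both higher in rea1. On chromosome 2, the abundant position at 73918711 was followed 397 kb on by one at 74318733 to 74320573 with 21.9 FPKM in rea1 against 9.89 in WT. On chromosome 4, the positions at 80772628 to 80774321 (1.66 FPKM in rea1 against 0.25 in WT) and 81276744 to 81278113 (42.8 in rea1 against 16.3 in WT) were 502 kb apart. On chromosome 7, the position at 90774331 to 90803178, with 1.36 FPKM in rea1, with WT listed at 0, preceded that at 91656759 by 854 kb. These pairs were singled out after their values were seen. Pairs within a run share members, and no such pair counts were made for other positions. Whether neighbours change together was therefore not tested.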

How the data were processed

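RNA was sequenced on an Illumina platform from endosperm at 15 days after pollination, with 1 file each for rea1 and WT. Per the file headers, the authors deposited FPKM values. Bowtie 0.12.2 was used, per the submitters' processing notes. Not given in the sources used here are the FPKM program, genome build, annotation and filters. Both files list the same 12140 rows, 13 of them on scaffolds and left out. Rows with identical coordinates were collapsed to 1 position and their FPKM summed (403 positions, all in the comparison set). Spans were divisible by 3 for 39.9% of positions (remainder 1 for 30.2%, remainder 2 for 29.9%), which fits starts that count from 0, and 1 was added to each printed start.

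Positions named were, by rule, the 10 highest by mean FPKM, the 5 highest and 5 lowest log2 ratios among those reaching 10 FPKM, the 5 most remote and the 3 on each side of the 300 kb limit. Runs, pairs, the longest positions and the most abundant one listed at 0 were added after their values were seen. Members and lists were chosen with earlier results of these data known. Values were not rescaled. The log2 ratio used a pseudocount of 1 FPKM. The distance and calling steps were tested on simulated data. Software was matplotlib 3.10.9, scipy 1.17.1, pandas 2.3.3, numpy 2.4.6 and Python 3.11.15.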

Additional observations from a re-analysis of the deposited data

How the results depend on the processing

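The expressed share of isolated positions stayed below that of other positions under all 17 alternatives run for it, with differences from -18.2 to -4.40 percentage points (-10.9 as reported). The difference was -18.2 at spans of 5000 bp or more, -4.52 with 10 FPKM as the limit for expressed and -4.40 in the central 50% of chromosomes, which was chosen after seeing the data. The share itself was 45.4% with a minimum span of 1000 bp, 28.4%, 47.9% and 52.6% in the 3 span classes, and 73.8%, 69.1%, 49.6% and 17.5% when expressed meant any value above 0, 0.1, 0.5 or 10 FPKM. The median of the mean FPKM was 0.57 with a minimum span of 1000 bp, 0.14, 0.71 and 1.11 in the span classes and 6.58 over expressed positions. Its difference from other positions was -0.53 as reported. It became -0.73 with a minimum span of 1000 bp and -0.071, -0.82 and -3.72 in the span classes. It was -0.69 with only expressed positions counted as neighbours and -0.16 in the central 50%. Over expressed positions, which leave out unexpressed ones by construction, the difference had the opposite sign, at 0.23. Both quartiles of expressed positions, given above, were nevertheless lower for isolated positions. The median log2 ratio was -0.12 at an isolation distance of 500 kb, 0.44 at spans of 500 to 2000 bp, -0.17 with the median ratio of well-expressed positions set to 0 and 0.25 among positions reaching 10 FPKM. Its difference from other positions was -0.088 as reported, -0.23 at 500 kb and 0.25 at 500 to 2000 bp, so no direction of the ratio is claimed. The share past 2-fold was 36.7% at 500 to 2000 bp, 6.56% at 5000 bp or more, 27.5% and 4.50% with pseudocounts of 0.1 and 10, 7.93% with no minimum FPKM, and 38% and 4% at 1.5-fold and 4-fold. Over the alternatives run, its difference from other positions lay between -3.20 and 5.54 points. The outer parts of the chromosomes, given above, were not among these alternatives. Ratios near 1 FPKM rest on few fragments. No paired analysis was possible because there is 1 value per locus and genotype, which also means that no sample could be omitted.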

Other observations

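Positions that stood as far apart but fell outside the rule were 84 with a span under 500 bp and 21 listed with several rows. Adding the 21 to the isolated set was an alternative chosen after seeing the data. It left 20 positions 2-fold or more higher in rea1 and 20 lower among 219 expressed ones. These were 9.13% in each direction, beside 11.3% higher and 7.40% lower of other positions. The expressed share became 42.7%, against 51.5% of other positions, a difference of -8.79 points.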
